A study of Mus musculus with 24 samples.

Results

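Inhibitory receptors are surface proteins that dampen a T cell once it has been activated. The 9 genes Cd200, Btla, Ctla4, Pdcd1, Lag3, Havcr2, Tigit, Cd160 and Cd274 were taken by their symbols from 22180 measured genes. All 9 were measured, each by 1 probe set of an Affymetrix array. RNA came from mouse CD4 T cells of TRIM28 knockout (KO) animals and of wild-type (WT) littermates. The cells were naive (0 h) or had been stimulated for 4, 24 or 72 h with plate-bound anti-CD3 and soluble anti-CD28, antibodies that trigger the T cell receptor and its main costimulator. The 24 arrays form 8 groups of 3: KO cells at 0, 4, 24 and 72 h and WT cells at the same times. The sources used here give neither the deleted allele nor a Cre driver, the age of the mice or the sort gate.

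T cells keep most inhibitory receptors low at rest and make them after activation, so that the response limits itself. The receptors recruit phosphatases to the T cell receptor complex or take ligands away from stimulatory receptors, and their lasting expression together marks exhausted T cells. CTLA-4 (Ctla4) competes with CD28 for CD80 and CD86, PD-1 (Pdcd1) binds PD-L1 and PD-L2, LAG-3 (Lag3) binds MHC class II, TIGIT (Tigit) competes with CD226 for the poliovirus receptor, and TIM-3 (Havcr2) binds galectin-9 among others. BTLA (Btla) and CD160 (Cd160) bind the herpesvirus entry mediator encoded by Tnfrsf14. Cd200 and Cd274 encode ligands rather than receptors: CD200 engages an inhibitory receptor found mainly on myeloid cells, and Cd274 encodes PD-L1. TRIM28 is a corepressor brought to chromatin by KRAB zinc finger proteins.

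Levels are log2 intensities, so that 1 unit is a doubling, and array medians lay between 3.59 and 3.76. Differences were tested with limma over all 22180 genes, and a gene was counted as changed at a Benjamini-Hochberg adjusted p below 0.05. The labels do not tie the arrays to separate animals, so a p-value here reflects array-to-array spread, which may in part be technical. Trim28 averaged 5.16 to 5.61 in the 4 KO groups and 7.78 to 9.19 in the 4 WT groups, without overlap. Whether its probes lie in the deleted part is not given. Arrays numbered 3 carried Y-linked transcripts in every group, with Uty between 6.12 and 6.87 against at most 2.66 on arrays 1 and 2. The T cell markers summed to 13.60 to 13.61 in KO cells and 13.63 to 13.69 in WT cells at 0 h. Their sums overlapped at 4 and 24 h and were apart at 72 h (13.03 to 13.20 in KO, 12.91 to 12.93 in WT). At 72 h Zap70 (0.49), Cd3d (0.37), Cd3e (0.35) and Cd3g (0.30) were called higher in KO cells. Thy1 was called lower at 4 h (-0.50), a call that ended when any of 3 arrays was left out, and at 24 h (-0.56). Also at 24 h, Cd3d (0.40), Cd3g (0.25) and Cd3e (0.20) were called higher. That call of Cd3e ended when any of 4 arrays was left out. In a bulk sample, fewer cells of a type and less RNA per cell cannot be told apart.

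Stimulation raised 8 of the 9 genes at 1 or more times in both genotypes, each on its own timetable. Against 0 h, 7 members rose and 1 fell at 4 h in KO cells, where 15.1% of all genes rose and 16% fell. In WT cells 6 rose and 1 fell, where 16.8% of all genes rose and 17.8% fell. At 24 h 8 members rose in KO cells (17.6% of all genes rose) and 8 in WT cells (23.2%). At 72 h 7 rose in KO cells (21.1%) and 7 in WT cells (22.2%). The median member changed by 1.21, 1.53 and 2.48 log2 at 4, 24 and 72 h in KO cells and by 1.23, 1.34 and 2.26 in WT cells, against medians of all genes between -0.01 and 0.04.

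Pdcd1 and Cd274 rose early. Cd200, Btla, Tigit and Cd160 had also risen by 4 h in both genotypes. Pdcd1 rose by 3.90, 3.34 and 3.29 log2 at 4, 24 and 72 h in KO cells and by 4.08, 4.32 and 2.97 in WT cells (SE 0.14 each). In KO cells it fell by 0.55 between 4 and 24 h (adjusted p = 0.00225, limma), and the step from 24 to 72 h was -0.05 (95% interval -0.33 to 0.23). In WT cells the step from 4 to 24 h was 0.24 (adjusted p = 0.187, limma), which passed without WT array 3 at 4 h (0.41, adjusted p = 0.0192, limma), and Pdcd1 fell by 1.35 between 24 and 72 h (adjusted p = 1.27e-08, limma). Between 4 and 24 h, 28.3% of all genes changed in KO cells and 32.6% in WT cells, and between 24 and 72 h 17.7% in KO cells and 27.4% in WT cells. Cd274 rose by 1.94, 0.72 and 0.89 in KO cells and by 2.35, 1.34 and 1.44 in WT cells (SE 0.11), with its peak at 4 h in both.

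Ctla4 and Lag3 rose late. Ctla4, whose product binds CD80 and CD86 more tightly than CD28 does, changed by 0.04, 1.53 and 2.65 at 4, 24 and 72 h in KO cells and by -0.63, 1.69 and 2.26 in WT cells (SE 0.10). The 4 h value in WT cells was a fall (adjusted p = 5.12e-06, limma), whereas that in KO cells did not pass the test (adjusted p = 0.831, limma). Lag3 changed by -0.49, 3.06 and 3.70 in KO cells and by -0.03, 3.78 and 5.03 in WT cells (SE 0.15). Its fall at 4 h in KO cells (adjusted p = 0.00969, limma) ended without KO array 1 at 0 h (-0.39, adjusted p = 0.0718, limma).

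Tigit rose by 4 h and again by 72 h, with changes of 2.45, 1.84 and 4.28 at 4, 24 and 72 h in KO cells and of 1.55, 1.11 and 4.29 in WT cells (SE 0.18). The step from 4 to 24 h was a fall of 0.61 in KO cells (adjusted p = 0.00901, limma), lost without KO array 2 at 4 h (-0.51, adjusted p = 0.0595, limma), and -0.45 in WT cells (adjusted p = 0.053, limma), which passed without WT array 1 at 24 h (-0.71, adjusted p = 0.000927, limma). Cd160 rose at 4 and 24 h alone, with 1.64, 0.87 and -0.28 in KO cells and 1.23, 1.24 and 0.04 in WT cells (SE 0.25), with the arrays at 72 h overlapping those at 0 h. Cd200 climbed by 1.21, 2.27 and 2.48 in KO cells and by 1.52, 3.88 and 3.94 in WT cells (SE 0.12). Btla, which was already well measured at rest, rose by 0.71, 0.46 and 0.21 in KO cells and by 0.80, 1.12 and 0.72 in WT cells (SE 0.07). The KO value at 72 h lost its call without KO array 2 at 0 h (0.13, adjusted p = 0.226, limma) or KO array 1 at 72 h (0.15, adjusted p = 0.164, limma). Havcr2 lay between 2.13 and 2.74 on all 24 arrays, below 3.24, the 40th percentile of gene means, so its values are near the floor of the scale. Its rise of 0.38 at 4 h in KO cells passed the test (adjusted p = 0.00233, limma), and no other step of it in time did.

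**Figure D1:**
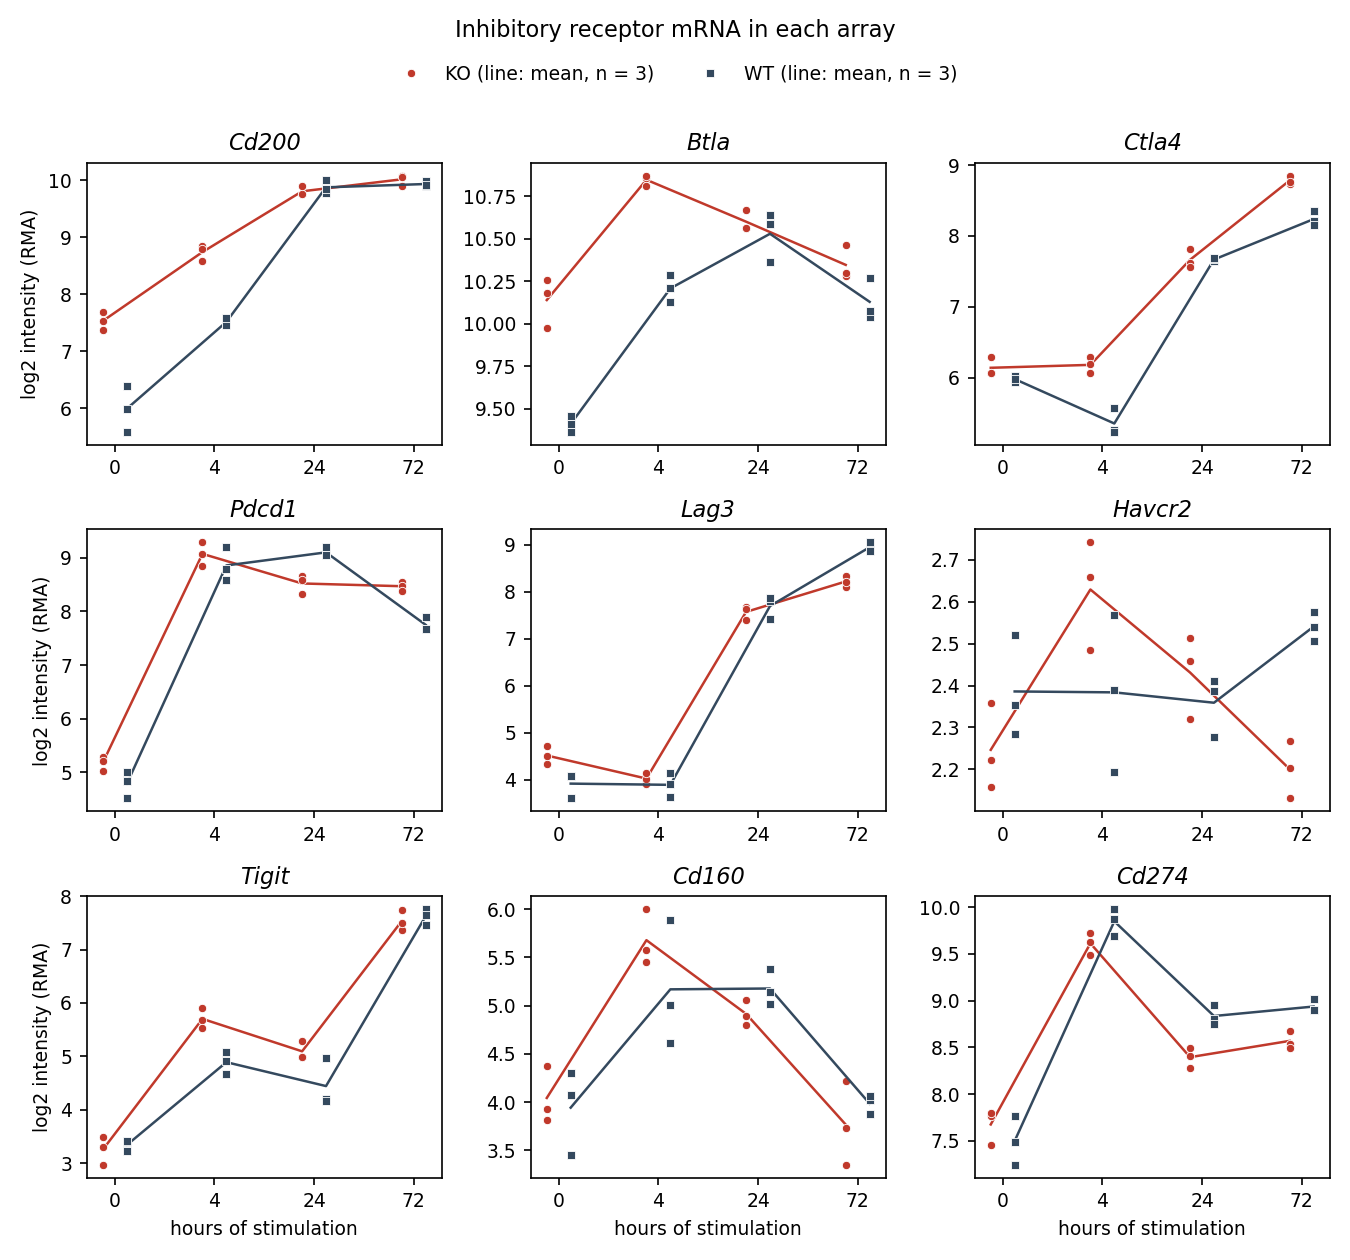
Level of each inhibitory receptor gene on every array (vertical axes, log2 intensity, a separate scale for each gene) against hours of stimulation (horizontal axes, 4 times evenly spaced and not to scale). Red circles are KO arrays and dark squares WT arrays, and lines join the means of 3 arrays; Cd200 and Btla lie apart at 0 and 4 h and overlap at 24 h, while Pdcd1 crosses between 24 and 72 h.

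The order of the 8 group means differed from gene to gene. Cd200 averaged 7.53 ± 0.16, 8.74 ± 0.13, 9.80 ± 0.08 and 10.01 ± 0.10 in KO cells at 0, 4, 24 and 72 h and 5.99 ± 0.40, 7.51 ± 0.06, 9.87 ± 0.12 and 9.93 ± 0.04 in WT cells (SD, n = 3 each). Its 4 groups at 24 and 72 h overlapped with their neighbours in order, and WT at 0 h stood apart as the lowest. Btla averaged 10.14 ± 0.15, 10.85 ± 0.03, 10.60 ± 0.06 and 10.35 ± 0.10 in KO cells and 9.41 ± 0.05, 10.21 ± 0.08, 10.53 ± 0.15 and 10.13 ± 0.12 in WT cells. Here WT at 0 h was lowest and KO at 4 h highest, both apart, and the 6 groups between them each overlapped with the next.

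Ctla4 averaged 6.14 ± 0.14, 6.18 ± 0.11, 7.66 ± 0.13 and 8.78 ± 0.06 in KO cells and 5.98 ± 0.04, 5.35 ± 0.19, 7.67 ± 0.02 and 8.24 ± 0.10 in WT cells (SD, n = 3 each). Lag3 averaged 4.51 ± 0.20, 4.02 ± 0.12, 7.57 ± 0.15 and 8.22 ± 0.12 in KO cells and 3.91 ± 0.27, 3.89 ± 0.26, 7.69 ± 0.25 and 8.95 ± 0.10 in WT cells. For both, the KO and WT groups at 24 h overlapped and both groups at 72 h stood above them and apart from each other, with KO the higher for Ctla4 and WT for Lag3. Pdcd1 averaged 5.18 ± 0.13, 9.07 ± 0.22, 8.52 ± 0.18 and 8.47 ± 0.08 in KO cells and 4.78 ± 0.25, 8.86 ± 0.31, 9.10 ± 0.08 and 7.75 ± 0.13 in WT cells. Both groups at 0 h and WT at 72 h stood apart from their neighbours in order, and the other 5 groups overlapped in a chain.

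Tigit averaged 3.25 ± 0.27, 5.70 ± 0.19, 5.09 ± 0.17 and 7.53 ± 0.19 in KO cells and 3.34 ± 0.10, 4.89 ± 0.20, 4.44 ± 0.46 and 7.62 ± 0.15 in WT cells (SD, n = 3 each). Cd160 averaged 4.04 ± 0.30, 5.68 ± 0.29, 4.92 ± 0.13 and 3.77 ± 0.44 in KO cells and 3.94 ± 0.44, 5.17 ± 0.66, 5.18 ± 0.18 and 3.98 ± 0.10 in WT cells. Its 4 groups at 0 and 72 h overlapped with each other, below the 4 at 4 and 24 h. Cd274 averaged 7.68 ± 0.19, 9.61 ± 0.12, 8.39 ± 0.11 and 8.57 ± 0.10 in KO cells and 7.50 ± 0.26, 9.85 ± 0.14, 8.83 ± 0.11 and 8.94 ± 0.07 in WT cells, with both 0 h groups lowest and both 4 h groups highest.

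In cells that had not been stimulated, Cd200 was 2.91 times and Btla 1.66 times as high in KO as in WT. Cd200 stood at 7.53, 7.36 and 7.69 on the KO arrays at 0 h, against 5.98, 5.58 and 6.39 on the WT arrays. Every KO array lay above every WT array, and the KO arrays at 0 h overlapped the WT arrays at 4 h (means of 7.53 in KO at 0 h and 7.51 in WT at 4 h). The difference was 1.54 log2 (SE 0.12, adjusted p = 2.8e-09, limma). Btla stood at 10.26, 9.98 and 10.18 on the KO arrays, against 9.41, 9.36 and 9.46 on the WT arrays. The groups did not overlap, and the KO arrays at 0 h overlapped both those of WT at 4 h and those of WT at 72 h. The difference was 0.73 (SE 0.07, adjusted p = 2.13e-07, limma).

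Lag3 also passed the test at 0 h. It stood at 4.72, 4.32 and 4.50 in KO cells, against 4.07, 3.60 and 4.08 in WT cells, without overlap but at a low level. The difference of 0.60 (SE 0.15, adjusted p = 0.0235, limma) lost its call without WT array 2 (0.44, adjusted p = 0.193, limma), without KO array 1 (0.50, adjusted p = 0.145, limma) and without KO array 3 (0.61, adjusted p = 0.0617, limma). Pdcd1 (0.40, adjusted p = 0.153, limma) and Ctla4 (0.16, adjusted p = 0.544, limma) did not overlap between the genotypes either, with KO higher, but did not pass. Tigit, Cd160, Cd274 and Havcr2 overlapped. In all, 3 of 9 members were higher in KO cells and 0 lower at 0 h, where 1.76% of all genes were higher and 0.577% lower. Without overlap were 5 of 9, where 16.9% of all genes were.

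The same direction held at 4 h, when 4 of 9 members were higher in KO cells and 0 lower, with 3.3% of all genes higher and 0.834% lower. Cd200 stood at 8.84, 8.59 and 8.79 in KO cells, against 7.50, 7.45 and 7.58 in WT cells. All KO arrays were above all WT arrays, and the difference was 1.22 (SE 0.12, adjusted p = 2.06e-07, limma), or 2.34 times. Btla stood at 10.86, 10.81 and 10.87 in KO cells, against 10.21, 10.29 and 10.13 in WT cells. This was the highest of the 8 group means of Btla and overlapped none of the others, with a difference of 0.64 (SE 0.07, adjusted p = 2.08e-06, limma).

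Ctla4 stood at 6.29, 6.18 and 6.07 in KO cells at 4 h, against 5.57, 5.25 and 5.23 in WT cells. The KO arrays overlapped those of KO cells at 0 h, whereas the WT arrays lay below all other groups. The difference was 0.83 (SE 0.10, adjusted p = 2.08e-06, limma), or 1.78 times. Tigit stood at 5.68, 5.90 and 5.52 in KO cells, against 5.08, 4.92 and 4.67 in WT cells, again without overlap. It was higher by 0.81 (SE 0.18, adjusted p = 0.00596, limma), a call that ended with arrays 1 and 2 alone (adjusted p = 0.0626, limma) and with KO array 2 as the only KO array (1.01, adjusted p = 0.0801, limma). These 4 were the members without overlap at 4 h, where 16.2% of all genes had none. Pdcd1, Lag3, Havcr2, Cd160 and Cd274 overlapped, and their differences lay between -0.24 for Cd274 and 0.51 for Cd160. Cd160 passed once WT array 3 was left out (0.87, adjusted p = 0.0352, limma).

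Cd200 and Btla are neighbours. In the order of RefSeq genes (GRCm38.p6) they lie next to each other on chromosome 16, with Atg3, an autophagy enzyme gene, on the other side of Btla and the predicted gene Gm609 beyond Cd200. Atg3 passed at no time, with differences of 0.09, 0.06, -0.09 and -0.05 at 0, 4, 24 and 72 h (SE 0.08, adjusted p at least 0.579, limma), and Gm609 averaged 2.42, near the floor. The windows from 250 bases before to 50 after the start of both genes (RefSeq, GRCm38.p6) are shown because these genes differed together at 0 and 4 h. That of Cd200 is chr16:45409004-45409303 on the minus strand and that of Btla chr16:45224087-45224386 on the plus strand. Those of Pdcd1 (chr1:94052504-94052803, minus strand) and Cd274 (chr19:29367188-29367487, plus strand) are shown because they were both lower in KO cells at 24 h. Capitals mark matches on either strand to an AP-1 motif (TGANTCA), the core of an NFAT motif (GGAAA) or an IRF motif (GAAA, any 2 bases, GAAA). AP-1 and NFAT are factors switched on by the T cell receptor, and IRF factors act in the interferon response.
Cd200 promoter: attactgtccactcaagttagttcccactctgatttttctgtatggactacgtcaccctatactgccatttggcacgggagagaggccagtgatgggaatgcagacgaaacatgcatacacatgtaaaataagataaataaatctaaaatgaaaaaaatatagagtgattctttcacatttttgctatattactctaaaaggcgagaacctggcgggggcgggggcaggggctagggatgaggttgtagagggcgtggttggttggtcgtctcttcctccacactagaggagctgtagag
Btla promoter: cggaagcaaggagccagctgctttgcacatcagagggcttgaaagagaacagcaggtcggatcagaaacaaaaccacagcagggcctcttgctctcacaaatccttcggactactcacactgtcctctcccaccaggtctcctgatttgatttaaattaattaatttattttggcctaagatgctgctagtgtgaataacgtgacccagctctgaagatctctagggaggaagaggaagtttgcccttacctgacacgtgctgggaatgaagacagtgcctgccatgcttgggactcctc
Pdcd1 promoter: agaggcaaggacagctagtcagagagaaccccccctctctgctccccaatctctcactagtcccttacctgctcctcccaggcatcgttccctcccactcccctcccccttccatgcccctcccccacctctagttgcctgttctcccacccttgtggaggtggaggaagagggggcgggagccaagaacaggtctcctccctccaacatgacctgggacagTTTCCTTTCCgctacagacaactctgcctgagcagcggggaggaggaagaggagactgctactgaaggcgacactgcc
Cd274 promoter: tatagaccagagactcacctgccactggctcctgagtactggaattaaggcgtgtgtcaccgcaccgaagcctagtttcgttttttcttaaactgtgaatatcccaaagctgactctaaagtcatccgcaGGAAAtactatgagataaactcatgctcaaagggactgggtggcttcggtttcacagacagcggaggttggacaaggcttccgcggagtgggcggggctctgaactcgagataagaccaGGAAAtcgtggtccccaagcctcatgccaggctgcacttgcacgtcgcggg

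The Cd200 and Btla windows held no match to these letters. Pdcd1 held 2 NFAT cores, at -28 and -23 counted from the start, and Cd274 held 2, at -120 and -1. A GC box (GGGCGG), also searched but not in capitals, was found at -34 in Cd200, -77 in Pdcd1 and -31 in Cd274, and a TATA box (TATAAA) in none of the 4. Of all 32851 windows of this length in the table, 61.3% held an NFAT core, 7.81% an AP-1 motif, 3.44% an IRF motif, 35.7% a GC box and 13.6% a TATA box. Among members whose windows are not shown, Ctla4 (-144), Tigit (-110 and -13) and 1 of 2 Cd160 windows (-145) also held NFAT cores, and Havcr2 held none. A match is only a description of the letters, and none of these arrays measured binding.

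At 24 h KO and WT arrays overlapped for Cd200, Btla and Ctla4, while Pdcd1, Cd274 and Tigit differed. Cd200 stood at 9.75, 9.76 and 9.89 in KO cells, against 9.999, 9.77 and 9.84 in WT cells. These overlapped, with a difference of -0.07 (95% interval -0.32 to 0.18), and that of Btla was 0.07 (-0.08 to 0.22) and that of Ctla4 -0.00 (-0.20 to 0.19). Pdcd1 stood at 8.32, 8.66 and 8.59 in KO cells, against 9.19, 9.06 and 9.05 in WT cells. All KO arrays were below all WT arrays. The difference of -0.58 (SE 0.14, adjusted p = 0.00525, limma), 0.669 times the WT level, lost its call without KO array 1 (-0.48, adjusted p = 0.0559, limma).

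Cd274, the PD-1 ligand, was lower as well at 24 h. It stood at 8.49, 8.28 and 8.41 in KO cells, against 8.95, 8.80 and 8.75 in WT cells. The groups did not overlap, and the difference of -0.44 (SE 0.11, adjusted p = 0.00759, limma) lost its call without WT array 1 (-0.38, adjusted p = 0.0525, limma). Tigit stood at 4.99, 5.29 and 4.99 in KO cells, against 4.97, 4.20 and 4.16 in WT cells, where array 1 stood well above the others. It was higher by 0.65 (SE 0.18, adjusted p = 0.0152, limma), but not without WT array 2 (adjusted p = 0.0922, limma), WT array 3 (adjusted p = 0.0924, limma) or KO array 2 (adjusted p = 0.0857, limma). So 1 of 9 members was higher and 2 were lower at 24 h, where 3.9% of all genes were higher and 7.38% lower, and these 3 had no overlap, as 27.2% of all genes did. The median difference of the 9 was -0.07, against -0.05 over all genes.

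At 72 h the members had spread in both directions, with 2 higher and 3 lower in KO cells while 2.56% of all genes were higher and 3.78% lower. Pdcd1 stood at 8.55, 8.48 and 8.38 in KO cells, against 7.67, 7.68 and 7.90 in WT cells. The order of the genotypes was the opposite of that at 24 h, again with no overlap, and the difference was 0.72 (SE 0.14, adjusted p = 0.000785, limma), or 1.65 times. Ctla4 stood at 8.85, 8.74 and 8.76 in KO cells, against 8.35, 8.22 and 8.15 in WT cells. The KO arrays were the highest of all groups for Ctla4, with a difference of 0.55 (SE 0.10, adjusted p = 0.000349, limma).

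Lag3, in contrast, stood at 8.10, 8.34 and 8.21 in KO cells at 72 h, against 8.93, 8.86 and 9.05 in WT cells. Here the WT arrays were above every other group, and KO cells held 0.603 times the WT level (-0.73, SE 0.15, adjusted p = 0.00152, limma). Cd274 stood at 8.68, 8.54 and 8.49 in KO cells, against 8.89, 8.90 and 9.01 in WT cells. All KO arrays were below all WT arrays (-0.37, SE 0.11, adjusted p = 0.0389, limma). Havcr2 was between 2.13 and 2.27 in KO cells and between 2.51 and 2.58 in WT cells, so its difference of -0.34 (SE 0.10, adjusted p = 0.0294, limma) lies among values near the floor. The calls of Cd274 and Havcr2 each ended when any 1 of 5 arrays at 72 h was left out: all but KO array 1 for Cd274 (adjusted p up to 0.179, limma) and all but KO array 2 for Havcr2 (adjusted p up to 0.14, limma).

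The remaining members did not pass at 72 h. Cd200 was 0.08 (95% interval -0.17 to 0.34), Tigit -0.09 (-0.45 to 0.27) and Cd160 -0.22 (-0.73 to 0.30). Btla, at 10.46, 10.28 and 10.30 in KO cells against 10.27, 10.04 and 10.08 in WT cells, was 0.22 (adjusted p = 0.0899, limma) and passed without WT array 1 (0.29, adjusted p = 0.0309, limma). Its KO arrays lay just above its WT arrays, and with it 6 members had no overlap at 72 h, as did 24.6% of all genes. Over the mean of the 4 times, Cd200 (0.69), Btla (0.41), Ctla4 (0.38) and Tigit (0.32) were higher and Cd274 (-0.22) lower in KO cells, that is 4 of 9 members higher against 5.46% of all genes, and 1 lower against 4.34%. Cd160 passed at no time with all arrays in the fit.

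**Figure D2:**
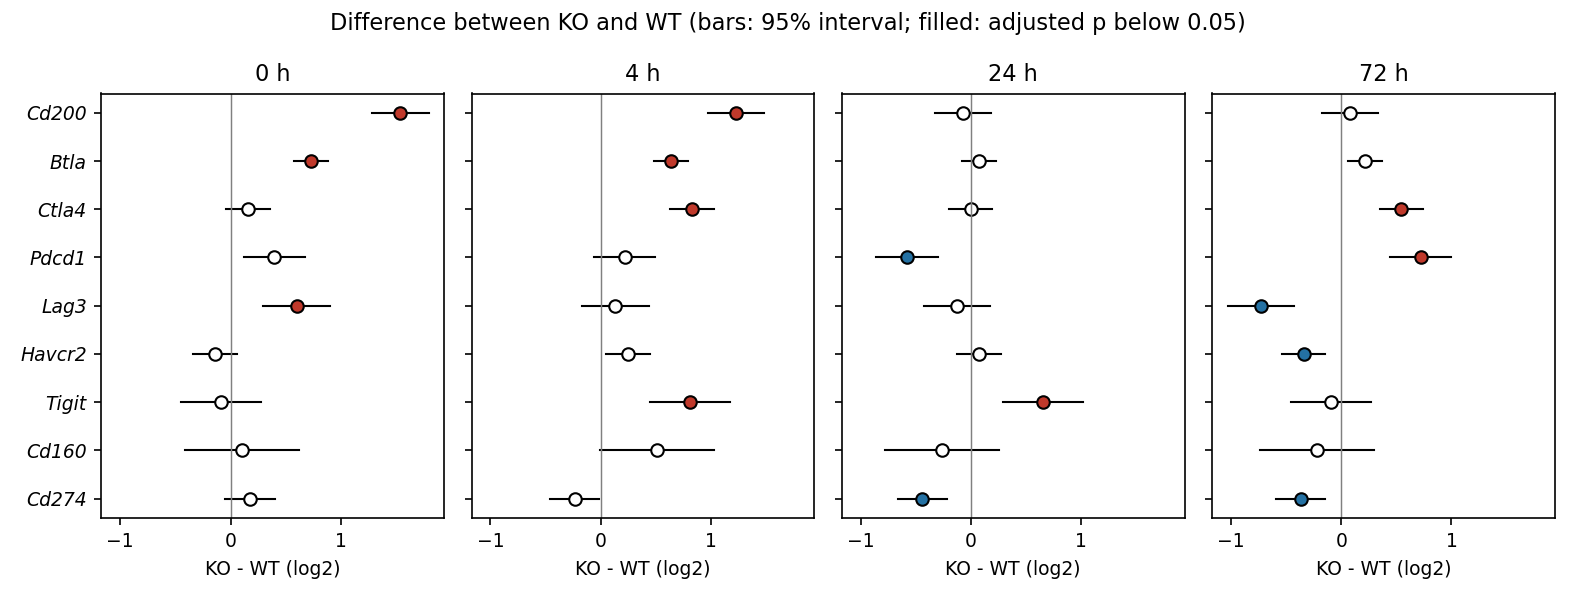
Difference between KO and WT in log2 intensity (horizontal axes) for each of the 9 genes (rows) at 0, 4, 24 and 72 h (panels). Points are differences of the means of 3 arrays, bars 95% intervals of the fit, and filled points passed the test, red for higher and blue for lower in KO; red points lead at 0 and 4 h, and blue points are present at 24 and 72 h.

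The response itself was compared between the genotypes by the interaction, the change from 0 h in KO cells minus that in WT cells. It was largest for Cd200: the rise to 24 h was smaller by 1.61 in KO cells (SE 0.17, adjusted p = 2.89e-06, limma) and that to 72 h by 1.46 (adjusted p = 3.92e-06, limma). Btla differed by -0.66 at 24 h (SE 0.10, adjusted p = 0.0004, limma) and -0.51 at 72 h (adjusted p = 0.00307, limma). KO minus WT of Cd200 was 1.54 at 0 h and -0.07 at 24 h, and that of Btla 0.73 and 0.07. The interactions of these 2 genes thus largely restate their differences at 0 h. Lag3 differed by -1.33 at 72 h (SE 0.21, adjusted p = 0.000144, limma) and Pdcd1 by -0.98 at 24 h (SE 0.19, adjusted p = 0.00269, limma). Ctla4 was the 1 member with an interaction at 4 h, of 0.67 (SE 0.14, adjusted p = 0.0128, limma), where 0.446% of all genes had a positive one. At 24 h 5 members had a smaller rise in KO cells, and 4.22% of all genes a negative interaction. At 72 h 4 members had a smaller rise, and 2.86% of all genes a negative interaction. KO minus WT at 72 h set against KO minus WT at 24 h, a contrast chosen after the values were seen, was 1.30 for Pdcd1 (SE 0.19, adjusted p = 5.78e-05, limma) and 0.55 for Ctla4 (SE 0.14, adjusted p = 0.00986, limma), with 4.9% of all genes past the test on the positive side. That call of Ctla4 ended with arrays 1 and 2 alone (0.58, adjusted p = 0.0673, limma) and with KO array 2 as the only KO array (0.61, adjusted p = 0.18, limma). The call of Ctla4 at 4 h ended in each of 4 alternatives: arrays 1 and 2 alone, the compared groups only, quantile normalization again and KO array 2 as the only KO array (0.55 to 0.75, adjusted p between 0.101 and 0.254, limma). With that lone KO array the interaction at 24 h was -0.53 for Btla, -0.96 for Pdcd1, -0.48 for Lag3 and -0.86 for Cd274. The call of Lag3 at 24 h (-0.72) ended when any of 8 arrays was left out and that of Cd274 at 72 h (-0.54) when any of 11 was (adjusted p up to 0.115 for Lag3 and 0.14 for Cd274, limma). The comparisons with 0 h in each genotype share their 0 h arrays.

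**Figure D3:**
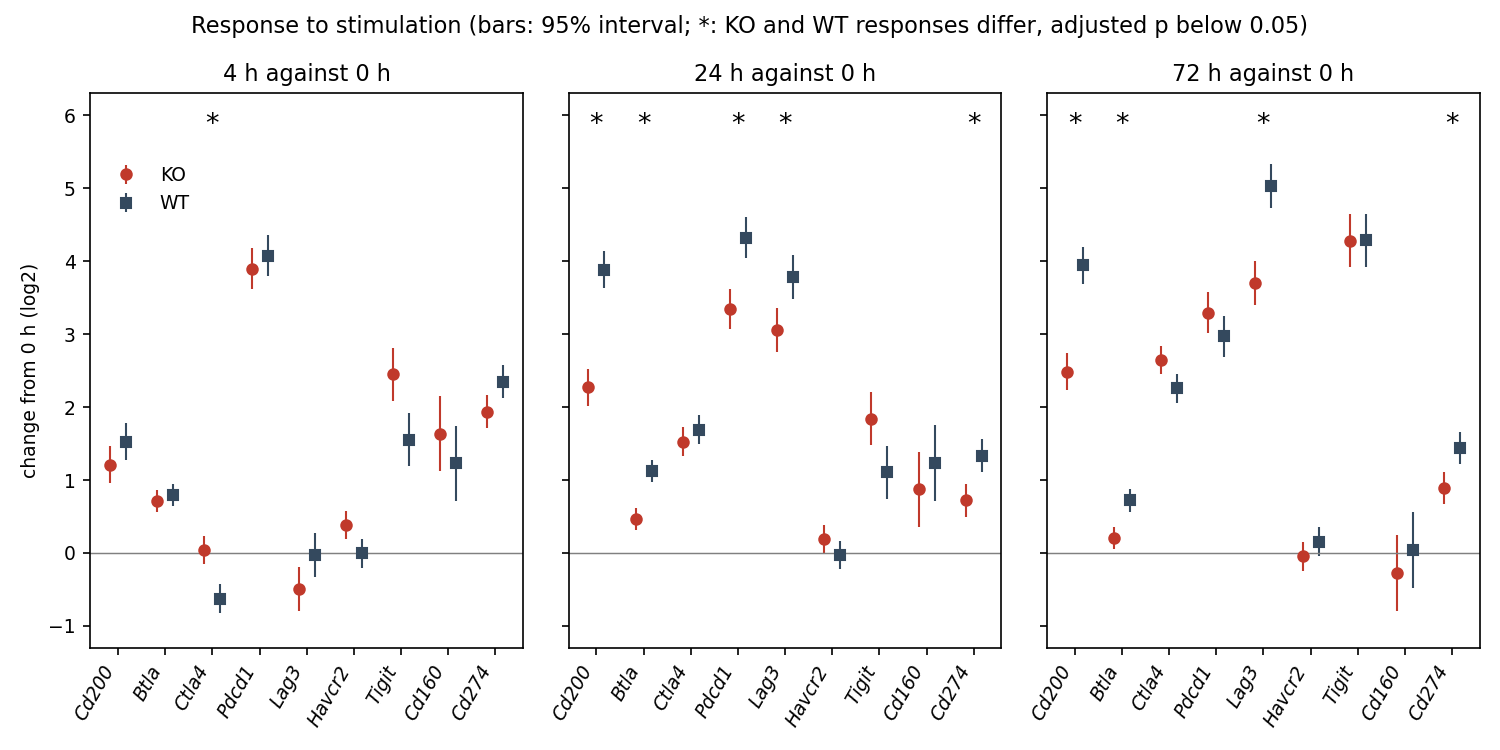
Change from 0 h in log2 intensity (vertical axis) for each of the 9 genes (horizontal axis) at 4, 24 and 72 h (panels), in KO cells (red circles) and WT cells (dark squares). Bars are 95% intervals of the fit, and a star marks genes whose responses differed between the genotypes at an adjusted p below 0.05, such as Cd200, at 2.27 in KO and 3.88 in WT at 24 h.

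Markers of other cells moved with the genotype. The 12 B cell markers used here summed to 8.83 to 9.73 in KO cells and 7.88 to 9.11 in WT cells at 0 h. At 4 h the sums were 8.36 to 9.13 in KO cells and 7.57 to 8.67 in WT cells. They were apart at 24 h (8.16 to 9.13 in KO, 7.45 to 7.95 in WT) and at 72 h (8.06 to 8.85 in KO, 7.63 to 7.69 in WT). The MHC class II gene H2-Ab1 was the highest of them in KO cells at 0 h, at 7.02 against 5.75 in WT cells. Of the 12, 2 were called higher at 0 h, 0 at 4 h, 3 at 24 h and 1 at 72 h (limma), with list medians between 0.46 and 0.83. Over the mean of the 4 times, 11 of the 12 were higher and 0 lower (limma, list median 0.51), led by H2-Aa (1.08) and H2-Ab1 (1.06), where 5.46% of all genes were higher. At 0 h the call of Cd79b ended in 18 of 24 fits that each left out 1 array (adjusted p up to 0.276, limma) and that of Cd22 in 4 (up to 0.14). KO arrays 1 and 3 carried the highest sums at every time. KO array 2 had a lower B cell sum than WT array 3 at 0 h (8.83 and 9.11) and at 4 h (8.36 and 8.67), a pair of arrays picked after the markers were seen. Cd200 stood at 7.36 on that KO array and 6.39 on that WT array at 0 h, and at 8.59 and 7.58 at 4 h. Btla likewise stood at 9.98 on KO array 2 and 9.46 on WT array 3 at 0 h, and at 10.81 and 10.13 at 4 h. At 0 h WT arrays 2, 1 and 3 had B cell sums of 7.88, 8.56 and 9.11. Cd200 stood there at 5.58, 5.98 and 6.39 and Btla at 9.36, 9.41 and 9.46. KO arrays 2, 3 and 1 had sums of 8.83, 9.57 and 9.73. On these, Cd200 stood at 7.36, 7.69 and 7.53 and Btla at 9.98, 10.18 and 10.26. So within a genotype both genes mostly rose with the sum at 0 h. At 4 h Cd200 rose with the sum in both genotypes. It stood at 7.45, 7.50 and 7.58 on WT arrays 2, 1 and 3. On KO arrays 2, 3 and 1 it stood at 8.59, 8.79 and 8.84. Btla at 4 h fell with the sum in WT cells (10.29, 10.21 and 10.13 on arrays 2, 1 and 3). On KO arrays 2, 3 and 1 Btla stood at 10.81, 10.87 and 10.86. The part of B cells in the Cd200 and Btla differences was not tested.

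KO array 2 also stood for KO on its own at each time, a setting chosen after the markers were seen. Cd200 was then higher by 1.38 at 0 h and 1.07 at 4 h, and Btla by 0.57 and 0.61. Ctla4 was higher by 0.83 at 4 h. At 24 h Pdcd1 was -0.45, and at 72 h Pdcd1 was 0.73, Lag3 -0.61 and Ctla4 0.50. Fewer genes were called in all with a lone KO array, so a lost call is no result about the members. The B cell sum of KO array 2 was still above those of WT arrays 1 and 2 (8.83 against 8.56 and 7.88 at 0 h). At 4 h it was 8.36 against 7.99 and 7.57. The setting therefore did not match the arrays in B cell markers. The lone array is assumed to vary like the WT groups.

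**Figure D4:**
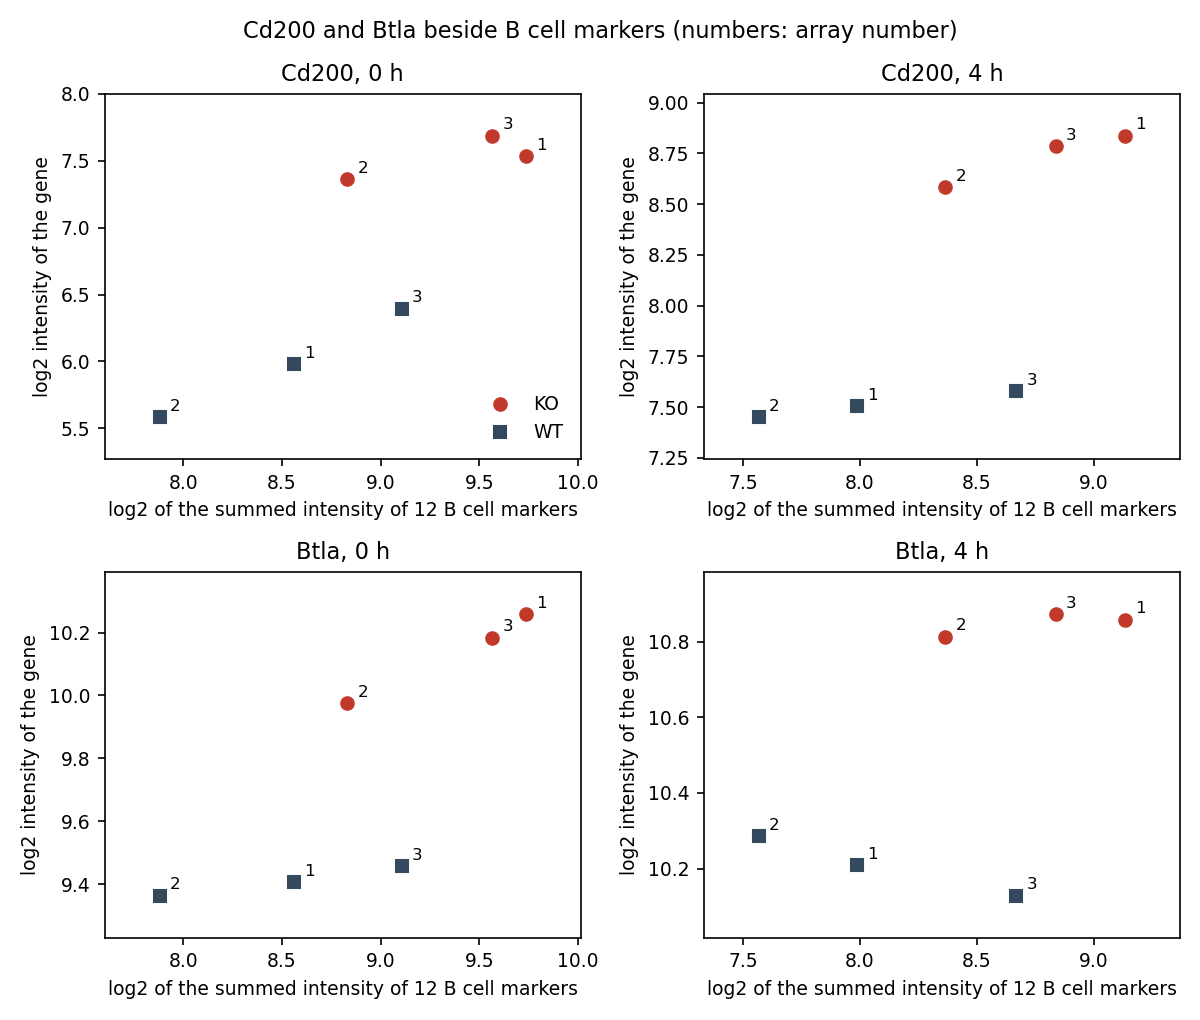
Level of Cd200 (top) and Btla (bottom), vertical axes in log2 intensity, against the log2 sum of 12 B cell markers (horizontal axes) on each array at 0 h (left) and 4 h (right). Red circles are KO and dark squares WT, numbers are array numbers, and KO array 2 lies left of WT array 3 and above it in all panels. Among the WT arrays at 0 h both genes rise with the sum.

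Regulatory T cells, which carry CTLA-4 constitutively, were followed by 6 markers. These summed to 8.91 to 9.35 in KO cells and 8.17 to 8.22 in WT cells at 0 h, with 4 of 6 higher and 0 lower. The 4 were Nrp1 (2.40), Lrrc32 (1.04), Ikzf4 (0.75) and Il2ra (0.59). The call of Lrrc32 ended when any of 3 arrays was left out. Foxp3, the lineage factor of these cells, did not pass at 0 h. At 4 h the sums overlapped (10.65 to 10.87 in KO, 10.45 to 10.71 in WT) with 3 of 6 higher, Nrp1 (2.17), Ikzf4 (1.01) and Foxp3 (0.93). From 0 to 4 h the sums rose in WT cells too, so after 0 h they mix the response to stimulation with any regulatory T cell content. They were apart at 24 h (11.25 to 11.46 in KO, 10.86 to 10.95 in WT) and 72 h (11.60 to 11.66 in KO, 11.31 to 11.39 in WT). Foxp3 was higher by 1.63 at 24 h. At 72 h it stood at 7.93 ± 0.40 in KO cells and 5.44 ± 0.46 in WT cells (SD, n = 3 each). That was a difference of 2.49 (SE 0.24, adjusted p = 5.3e-08, limma). The follicular helper marker Cxcr5, also made by B cells, was higher by 1.46, 1.17 and 0.84 at 0, 4 and 24 h. Of 11 myeloid markers, which summed to 7.98 to 8.59 in KO cells and 7.80 to 7.98 in WT cells at 0 h, 3 were higher, led by the neutrophil gene S100a8 (2.26). Natural killer cell markers, which activated T cells also make, summed to 7.54 to 7.73 in KO cells and 9.18 to 9.74 in WT cells at 72 h, with Nkg7 lower by 1.94, beside the lower Lag3. CD8 T cell markers summed to 6.02 to 6.26 in KO cells and 6.18 to 6.38 in WT cells at 0 h, and were apart and lower in KO cells at 24 h (5.99 to 6.23 in KO, 6.36 to 6.52 in WT) and 72 h (5.86 to 6.12 in KO, 6.45 to 6.74 in WT). Of these, Cd8b1 was lower by 0.41 at 24 h (adjusted p = 0.0191, limma), a call that ended when any of 4 arrays was left out, and by 0.65 at 72 h (adjusted p = 0.000356, limma).

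Markers of the state of the T cells moved as well. Naive T cell markers summed to 12.75 to 12.83 in KO cells and 12.96 to 13.09 in WT cells at 0 h, so that KO was the lower. At 4 h they were the higher in KO cells (11.78 to 11.9997 in KO, 11.51 to 11.66 in WT), and likewise at 24 h (11.66 to 11.97 in KO, 11.37 to 11.49 in WT), and at 72 h again the lower (11.52 to 11.60 in KO, 11.68 to 11.74 in WT). None of these ranges overlapped. At 24 h 3 of 5 were higher and 0 lower, with S1pr1, a receptor for exit from lymph nodes, at 1.55 and its regulator Klf2 at 1.24. Memory and effector markers summed to 8.94 to 9.27 in KO cells and 8.68 to 8.87 in WT cells at 0 h and to 9.61 to 9.75 in KO cells and 9.47 to 9.48 in WT cells at 4 h. They overlapped at 24 h (10.13 to 10.25 in KO, 10.07 to 10.24 in WT) and were apart and lower in KO cells at 72 h (10.89 to 11.04 in KO, 11.30 to 11.46 in WT). Of these 7 genes, 1 was higher at 0 h (Il2rb, 0.88), and 2 were lower at 72 h, Ly6c2 (-1.73) and the chemokine gene Ccl5 (-1.56). At 4 h Ly6c2 (1.26) and Il2rb (0.43) were higher in KO cells. At 24 h Ly6c2 (1.47) and Cxcr3 (0.51) were higher, and Itgb1 (-0.62) and Cd44 (-0.46) lower. Leaving out some 1 array ended the calls of Ly6c2 at 4 and 24 h, Il2rb at 4 h and Cd44 at 24 h. The part of these markers in the differences of Ctla4, Tigit, Lag3 and the other members was not tested.

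Of 13 genes for ligands and counter-receptors, 0 changed at 0 h, and 2 rose at both 4 and 24 h. Tnfrsf14, which encodes the partner of BTLA and CD160, was higher by 0.41 at 4 h and 0.77 at 24 h (SE 0.09). Lgals9, which encodes galectin-9, was higher by 0.38 and 0.79 (SE 0.09). At 72 h Cd80, the partner of both CD28 and CTLA-4, was lower by 1.28 (SE 0.16, adjusted p = 4.63e-06, limma) and Hmgb1 higher by 0.31. The call of Lgals9 at 4 h ended when any of 3 arrays was left out (adjusted p up to 0.152, limma). Pdcd1lg2, which encodes PD-L2 and lies beside Cd274, passed at no time, with differences between -0.21 and 0.22.

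Among 15 other receptors and adaptors that dampen T cell signalling, 1 rose and 2 fell at 0 h: Lilrb4a was higher by 1.43, while the collagen receptor gene Lair1 was lower by 0.60 and Cd5 by 0.35. At 4 h 1 rose (Sit1, 0.46), and at 24 h 3 did (Pecam1 0.70, Cd101 0.65 and Lax1 0.59). At 72 h 3 rose, Vsir, which encodes VISTA, by 0.71, Pecam1 by 0.65 and Klrc1 by 0.62, and Cd96, a relative of TIGIT, fell by 0.40. Leaving out some 1 array ended the calls of Lilrb4a, Lair1, Sit1, Cd101, Klrc1 and Cd96, with adjusted p up to 0.188 for Klrc1 (limma). The median of this list was between -0.09 and 0.14 at the 4 times.

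Of 13 stimulatory counterparts, 3 rose at 0 h, the TNF receptor genes Tnfrsf9 (0.84), Tnfrsf4 (0.51) and Tnfrsf18 (0.31). At 4 h 4 rose and 1 fell. Cd226, the stimulatory rival of TIGIT, was higher by 1.15 (SE 0.12, adjusted p = 5.11e-07, limma) and Slamf6 by 0.79, and Crtam was lower by 0.81. At 24 h 2 rose, with Cd2 at 0.77, and 3 fell: Crtam (-1.21), Tnfsf14 (-0.99) and the CD40 ligand gene Cd40lg (-0.72). At 72 h Slamf6 was higher by 0.62 and Crtam lower by 1.05. Cd28 and Icos flank Ctla4 on chromosome 1. Cd28 passed at no time, with 0.01 at 4 h, and Icos was higher at 24 h (0.32, adjusted p = 0.00701, limma) and did not pass at 0, 4 or 72 h. The call of Tnfrsf18 at 0 h ended when any of 3 arrays was left out (adjusted p up to 0.231, limma).

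Of 14 genes for phosphatases, kinases and adaptors of inhibitory signalling, 0 changed at 0 h and 1 rose at 4 h (Dgka, 0.23). At 24 h 4 rose and 1 fell. Ptpn22, a phosphatase that restrains the T cell receptor, was higher by 0.80, the diacylglycerol kinase gene Dgka by 0.56 and the ubiquitin ligase gene Cblb by 0.54. Ptpn11, which encodes the phosphatase SHP-2 that PD-1 recruits, was lower by 0.56 (SE 0.08, adjusted p = 1.9e-05, limma). The call of Dgka at 4 h ended when any of 4 arrays was left out (adjusted p up to 0.101, limma). At 72 h Dgka rose by 0.26 and the adaptor gene Dok1 fell by 0.99.

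Of 20 transcription factors known to act on inhibitory receptor genes 19 were measured, and 0 changed at 0 h. At 4 h Foxp3 (0.93) and Batf (0.44) rose and Nfatc1 fell by 0.31, calls that each ended without some 1 array (adjusted p up to 0.177 for Foxp3, limma). At 24 h 1 rose, Foxp3 (1.63), and 5 fell, among them Eomes (-0.92), Tbx21 (-0.74) and Egr3 (-0.62). At 72 h 6 rose and 2 fell. Eomes averaged 4.01 ± 0.20 in KO cells and 7.17 ± 0.30 in WT cells at 72 h (SD, n = 3 each), a difference of -3.15 (SE 0.17, adjusted p = 1.29e-12, limma). Tbx21, which encodes T-bet, averaged 5.65 ± 0.21 in KO cells and 8.004 ± 0.22 in WT cells (-2.35, SE 0.17, adjusted p = 2.98e-10, limma). Egr3 was higher by 0.99. Of 12 interferon response genes 10 were measured. At 72 h 9 were lower in KO cells and 0 higher, with a list median of -1.15 against 0.01 over all genes, led by Ifit1 (-1.63), Isg15 (-1.49), Irf8 (-1.44) and Irf7 (-1.38). Usp18, a brake on interferon signalling, was higher by 0.88, 3.11 and 2.85 at 0, 4 and 24 h and lower by 1.25 at 72 h.

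Across the 24 arrays, which share genotype, time and array number, the gene most like each member was sought among 4732 genes that reached 5 log2 and varied by at least 1. Cd200 was most like Il2rb, a subunit of the interleukin 2 receptor (Pearson r = 0.975), followed by Tmem256 (0.969) and Tnfrsf4 (0.959). Il2rb was itself higher in KO cells at 0 h (0.88, adjusted p = 1.02e-06, limma) and 4 h (0.43, adjusted p = 0.00847, limma), with 0.29 and 0.08 at 24 and 72 h, and the 4 h call ended when either of 2 arrays was left out (adjusted p up to 0.0623, limma). Btla was most like Dnajc15 (0.906), Ctla4 like Wdr90 (0.988), Pdcd1 like Shmt1 (0.989), an enzyme of folate metabolism, and Lag3 like Cit (0.989), a kinase of cell division. Tigit was most like Lif (0.978), a cytokine gene, Cd160 like Slc5a6 (0.88) and Cd274 like Zfp330 (0.974). Havcr2 reached only 0.567, with Tagap. Within the members, Ctla4 and Lag3 were the closest pair (0.954), followed by Cd200 and Lag3 (0.861), while Ctla4 and Cd160 ran most against each other (-0.346).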

How the data were processed

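RNA was measured on 24 Affymetrix arrays, 3 in each of 8 groups of genotype and time taken from the sample titles. The submitters' processing notes name RMA, oligo and R 3.1.0, and the deposited values are log2 intensities. RMA sets all arrays to one distribution, which removes any shift common to every gene and compresses low values. The files hold no detection calls. Gene names for the 41345 probe sets came from GEO's platform annotation: it holds 25335, 23521 with 1 gene symbol and 1814 with several. Of the 22180 genes left, 21994 were matched by Entrez ID to RefSeq, and for 1082 with several probe sets the highest mean was used. Of the members 8 had a RefSeq promoter window.

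The log2 values of 8 group means were fitted with limma 3.58.1 in R 4.3.3, with a mean-variance trend (16 residual and 8.81 prior degrees of freedom), two-sided, and checked on simulated data. The number of arrays limits the precision. No columns were identical, and the median correlation within a group was 0.995. The members and the lists were chosen with earlier results of these data known. All members are named, and of each list up to 4 changed genes per comparison with the largest difference. Genes most like a member were the highest by Pearson r. Marker sums are log2 of summed linear intensities. Alternatives concerned the probe set, dim genes, normalization, the variance model, array weights, the arrays fitted and the array number.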

Additional observations from a re-analysis of the deposited data

Results flagged for a closer look

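Responses to stimulation that differed between the genotypes by a test of the difference itself are listed here, as the change in KO cells minus the change in WT cells in log2 units (limma, adjusted over all genes). The Ctla4 change from 0 to 4 h differed by 0.67 (adjusted p = 0.0128), with Ctla4 lower at 4 h than at 0 h in WT cells. That call ended with arrays 1 and 2 alone, the compared groups only and quantile normalization again (adjusted p = 0.168, 0.146 and 0.101, limma). For the change from 0 to 24 h, Cd200 differed by -1.61, Pdcd1 by -0.98, Lag3 by -0.72, Btla by -0.66 and Cd274 by -0.62. For the change from 0 to 72 h, Cd200 differed by -1.46, Lag3 by -1.33, Cd274 by -0.54 and Btla by -0.51. The Cd200 and Btla values largely restate the KO minus WT differences at 0 h (1.54 and 0.73). For the change from 24 to 72 h, a contrast chosen after the values were seen, Pdcd1 differed by 1.30 and Ctla4 by 0.55. The Lag3 value at 24 h lost its call when any of 8 arrays was left out (adjusted p up to 0.115). The Cd274 value lost its call at 72 h with any of 11 left out (up to 0.14). At 24 h it did so without WT array 1 at 24 h (0.0503). Quantile normalization again ended the 24 h calls of Lag3 (adjusted p = 0.146, limma) and Cd274 (0.064) and the 72 h call of Cd274 (0.0589). The Ctla4 value from 24 to 72 h lost its call with arrays 1 and 2 alone (adjusted p = 0.0673) and with KO array 2 as the only KO array (0.18). With WT array 1 at 24 h left out, Tigit passed at 24 h (1.001, adjusted p = 0.00779) and at 4 h (0.90, adjusted p = 0.031).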

How the results depend on the processing

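No difference of a member called in the fit changed sign under any alternative that was run, and a robust variance fit changed no call of a member. The mean of probe sets could change none, because each member had 1 probe set. Members called between KO and WT at 0 and 4 h numbered 2 to 3 and 4 to 5 when each array was left out in turn, 2 to 3 at 24 h, 3 to 5 at 72 h and 5 to 6 for the mean of the times. Left out in the same way, the counts against 0 h were 7 to 8, 8 and 6 to 7 in KO cells at 4, 24 and 72 h and 7, 8 and 7 in WT cells, and the counts of interactions were 1 to 2, 4 to 5 and 3 to 4. When KO array 2 stood alone for KO, fewer members were called between KO and WT at each time, as were fewer genes in all. Arrays 1 and 2 alone left 3 members at 72 h and 0 interactions at 4 h. Normalizing the arrays by quantiles again left 0 interactions at 4 h and 3 at 24 h, and a fit of the compared groups alone left 0 at 4 h. Lag3 at 0 h lost its call under the quantile setting (adjusted p = 0.0584, limma) and in the fit of the compared groups (adjusted p = 0.133, limma); the causes were not tested.

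Over all genes the quantile setting raised 319 of 523 called genes at 0 h, 492 of 743 at 4 h and 1150 of 2159 at 24 h, beside 390 of 518, 732 of 917 and 865 of 2501 in the fit. Array weights called 2249 genes at 72 h, against 1405. Arrays 1 and 2 alone called 284, 562 and 707 at 0, 4 and 72 h, the compared groups alone 276 and 309 at 0 and 4 h, and KO array 2 standing alone 133, 238, 472 and 481. Without WT array 2 at 0 h 314 genes were called at 0 h, without KO array 1 at 0 h 333, without KO array 1 at 4 h 601 at 4 h and without KO array 1 at 24 h 1269 at 24 h.

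The array numbers were not taken as pairs. Same-numbered KO and WT arrays correlated in their deviations by 0.0961 to 0.306, and by -0.00455 to 0.128 without sex-linked genes. All 12 KO arrays correlated best with their own number, and 11 did without sex-linked genes. With the number as a fixed replicate block the counts of members stayed 3, 4, 3 and 5 at the 4 times. The mean gained Pdcd1 to reach 6. The fixed block also brought past the test the Tigit step from 4 to 24 h in WT cells (-0.45, adjusted p = 0.0392, limma). The Tigit difference in response from 24 to 72 h passed as well (-0.74, adjusted p = 0.0485, limma). As a random block, the number changed no call of a member. Low intensities, such as those of Havcr2, limit what can be seen.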
